A study of Mus musculus with 2 samples.

Results

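The secreted Wnt antagonists Sfrp1, Sfrp2, Frzb and Wif1 and the Wnt ligands Wnt5b and Wnt2 are 6 of the 27998 genes counted in single non-myocyte cells of the adult mouse ventricle. They were taken by symbol from both count tables. Wnt proteins are secreted signals that bind Frizzled receptors. With an LRP co-receptor they stabilise beta-catenin, and with co-receptors such as Ror proteins they act without it. Secreted Frizzled-related proteins (Sfrp1, Sfrp2 and Frzb, which is also called Sfrp3) carry a domain like the Wnt-binding part of a Frizzled receptor and hold ligand outside the cell. Wif1 binds Wnt ligands through a domain of its own. In the heart these genes are known from development and scar formation, where fibroblasts are a main source of the antagonists.

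The hearts were from 2 mice, wild-type C57BL/6 animals aged 10 to 12 weeks. Each gave 1 library of 3′ tagged cells, and there is no treated or mutant group. Atria were taken off and most cardiomyocytes were spun out before live cells were sorted, so what follows describes ventricular non-myocytes only. The tables hold 21355383 unique molecular identifiers (UMIs, each a counted RNA molecule) over 7732 barcodes in mouse 1 and 15174548 over 6367 in mouse 2, and the libraries share 65 barcode sequences. After filtering, 12295 cells remained. Cells were sorted by computer into gates on genes that are none of the 6: 3130 fibroblasts (at least 5 UMIs of Dcn), 2188 endothelial cells (at least 2 of Pecam1, Cdh5 and Egfl7 together), 105 mural cells (at least 4 of Rgs5, Kcnj8 and Vtn) and 5494 macrophages (at least 5 of the C1q genes). Fibroblasts were divided into a matrix gate (at least 4 UMIs of Cilp, Postn and Thbs4; 46 cells), a Pi16 gate (at least 2 UMIs; 1552 cells), a Tcf21 gate (at least 1 UMI; 824 cells) and the other 708. The matrix cut was taken first, and most matrix cells also pass the Pi16 cut. Only 4 of them in mouse 1 and 1 in mouse 2 do not. Endothelial cells with at least 2 UMIs of Npr3 and Cytl1 formed an endocardial gate of 79 cells, and 2109 were left as other endothelium. Levels are CPM, a gene's share of all UMIs in the gate times 10 to the power 6, given for each mouse or as mean ± SD over the 2 mice.

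The gates carried the markers of their names. Summed CPM of 7 fibroblast markers was 32819 to 46214 in the 4 fibroblast gates, against 345 to 913 in the other gates, and 5 pericyte markers summed to 4746 and 4988 CPM in mural cells. Mural cells also held 5442 and 6053 CPM of 7 endothelial markers, against 30306 and 31667 CPM in other endothelium, and their part in the mural values was not tested. The endocardial gate held 3685 and 3399 CPM of 6 endocardial markers, against 155 and 129 CPM in other endothelium. Its 7 endothelial markers summed to only 7878 and 7665 CPM, nearer to the mural gate than to other endothelium. Depth differed: the median fibroblast had 2745 and 2471 UMIs in mouse 1 and mouse 2, against 1461.5 and 1408.5 in endothelial cells, 1295 and 1293.5 in mural cells and 2840 and 2590 in macrophages. The mural gate holds 146057 UMIs in all, so a gene at 0 there is known only to lie under a limit set by 3 UMIs.

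The genes lie on 5 chromosomes (mm10, GENCODE annotation). Sfrp1 spans chr8:23411502-23449632 on the plus strand, Sfrp2 chr3:83766321-83774316 on the plus strand and Frzb chr2:80411970-80447625 on the minus strand. Wif1 spans chr10:121033960-121100650 on the plus strand. The ligands lie far apart on chromosome 6, Wnt2 at chr6:17988940-18030585 and Wnt5b at chr6:119432531-119544347, both on the minus strand. To set a fibroblast antagonist beside a fibroblast ligand and an endocardial one, the bases before the start site are shown for Sfrp2 (chr3:83766071-83766320, plus strand), Wnt5b (chr6:119544348-119544597, minus strand) and Wnt2 (chr6:18030586-18030695, minus strand), 5′ to 3′ and outside every annotated transcript of the gene, from RefSeq, build GRCm38.p6.
Sfrp2: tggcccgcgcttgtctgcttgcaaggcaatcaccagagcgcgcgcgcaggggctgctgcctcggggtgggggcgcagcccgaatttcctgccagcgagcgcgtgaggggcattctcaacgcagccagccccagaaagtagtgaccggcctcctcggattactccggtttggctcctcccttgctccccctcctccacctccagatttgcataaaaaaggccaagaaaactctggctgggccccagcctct
Wnt5b: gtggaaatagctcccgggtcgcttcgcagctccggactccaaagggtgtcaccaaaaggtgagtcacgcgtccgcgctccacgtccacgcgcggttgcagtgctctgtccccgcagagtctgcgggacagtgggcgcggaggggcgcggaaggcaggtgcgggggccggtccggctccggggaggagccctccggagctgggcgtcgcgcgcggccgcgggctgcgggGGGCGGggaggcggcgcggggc
Wnt2: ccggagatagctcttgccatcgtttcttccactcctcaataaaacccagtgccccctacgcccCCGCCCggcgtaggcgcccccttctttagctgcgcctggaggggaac
Capitals mark the GC box GGGCGG on either strand. It is also found in 32.7% of the 32851 promoters of 250 bases in the same RefSeq table and in 11.6% of them over the 110 bases that match the Wnt2 window. The other motifs searched on both strands matched none of the 3 windows. They were the TCF/LEF core (letters CTTTGA, in 13.8% of promoters of 250 bases), an E-box (letters CAGCTG, in 13.0%), the motif of GATA factors (letters GATAAG, in 6.55%), the TATA box (letters TATAAA, in 12.4%) and the CCAAT box (in 33.8%). The motifs were chosen with the sequences in view. Of the 6 genes, 5 have an entry in the promoter table and Sfrp1 has none, and the Frzb window lies inside an annotated transcript over all but 21 bases.

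**Figure D1:**
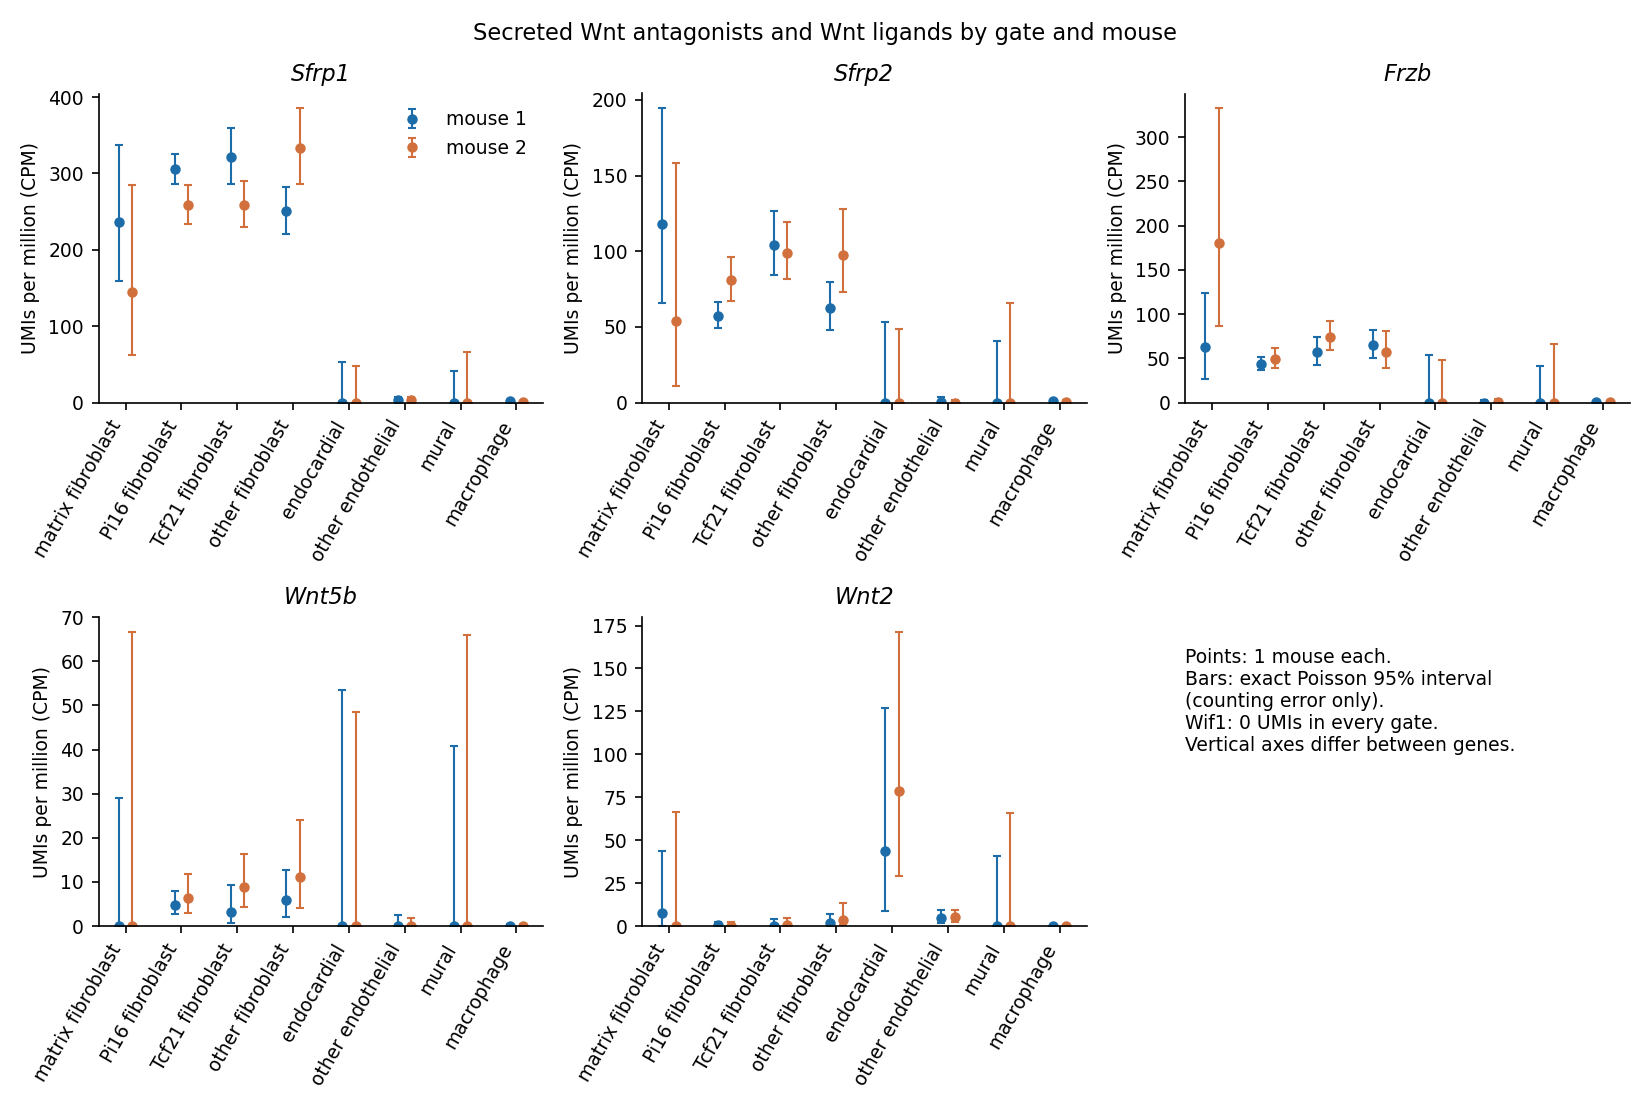
Level in CPM of Sfrp1, Sfrp2, Frzb, Wnt5b and Wnt2 in each of the 8 gates, with 1 point for each mouse and bars for the exact Poisson 95% interval, which covers counting error only. The antagonists lie in the 4 fibroblast gates, Wnt5b in 3 of them, and Wnt2 is highest in the endocardial gate; gates with few UMIs have long bars even at 0.

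Among the antagonists, Sfrp1 was present in fibroblasts at 296.0 CPM in mouse 1 and 269.1 CPM in mouse 2, against 3.18 and 2.98 CPM in endothelial cells. The groups did not overlap, and the log2 fold change was 6.54 ± 0.28 (SE; edgeR quasi-likelihood test, adjusted p = 2.2e-17). The fibroblast values also lay far above the 1.92 and 0.44 CPM of macrophages (log2 7.41 ± 0.25, edgeR adjusted p = 4.18e-20). Mural cells had 0 UMIs, so fibroblasts were at least 13.9-fold higher on the limit of 3 UMIs over the gate (edgeR adjusted p = 2.8e-08). Of all 2541 Sfrp1 UMIs in kept cells, 95.1% were in fibroblasts.

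Sfrp2 followed the same division between lineages. Fibroblasts had 68.5 and 89.4 CPM, against 1 UMI in all endothelial cells (275-fold, exact 95% interval 49.1 to 10865; edgeR adjusted p = 5.3e-14), and against 0.96 and 0.59 CPM in macrophages (log2 6.17 ± 0.29, edgeR adjusted p = 7.17e-17). Against the empty mural gate the bound was at least 3.73-fold (edgeR adjusted p = 0.000361), but the adjusted p became 0.056 when cells that pass several lineage gates were kept in each. Of all 730 Sfrp2 UMIs in kept cells, 88.8% were in fibroblasts and 9.04% in cells of 2 or more lineage gates. In mouse 1 these shares were 83.7% and 13.7%.

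Frzb stood at 50.6 and 61.3 CPM in fibroblasts, against 2 UMIs in endothelial cells (98.1-fold, interval 27.0 to 813; edgeR adjusted p = 1.92e-12). The fibroblast values lay far above the 0.53 and 0.44 CPM of macrophages too (log2 6.35 ± 0.33, edgeR adjusted p = 8.99e-16), and mural cells had none (at least 2.66-fold, edgeR adjusted p = 0.0023). No gate overlapped with fibroblasts for Sfrp1, Sfrp2 or Frzb.

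Wif1 was not counted once, in any of the 14099 barcodes and 36529931 UMIs, filtered cells included. A count of 0 allows a level of up to 0.0821 CPM over everything sequenced and up to 0.355 CPM in fibroblasts, or a UMI in up to 0.0958% of the 3130 fibroblasts.

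Of the ligands, Wnt5b was a sparse fibroblast gene. It had 24 UMIs in mouse 1 (4.63 CPM) and 26 in mouse 2 (7.93 CPM) in fibroblasts, each in a cell of its own, against 0 UMIs in endothelial cells, mural cells and macrophages. The level was at least 7.06-fold above endothelium (edgeR adjusted p = 0.000245) and at least 31.8-fold above macrophages (edgeR adjusted p = 6.87e-07). DESeq2 gave adjusted p = 0.181 and 0.057 for these comparisons, and the mural difference was not detectable at this depth (edgeR adjusted p = 0.52). Of 52 kept cells with Wnt5b, 50 were fibroblasts.

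Wnt2 had the opposite division. Fibroblasts had 0.96 and 0.92 CPM (8 UMIs), against 6.36 and 7.95 CPM in endothelial cells (26 UMIs). The groups did not overlap, and Wnt2 was lower in fibroblasts (log2 -2.80 ± 0.69, edgeR adjusted p = 0.00147). Endothelial cells, set against macrophages with 0 Wnt2 UMIs among 16130625, were at least 39.0-fold higher (edgeR adjusted p = 1.98e-06). Fibroblasts were at least 5.08-fold above macrophages (edgeR adjusted p = 0.0088), a call lost when doublets were kept (adjusted p = 0.077) or when fibroblasts with a UMI of a mesothelial marker were left out (adjusted p = 0.063). Those 27 cells held 4 of the 8 fibroblast UMIs of Wnt2.

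A gene is called here at an adjusted p below 0.05 and a log2 fold change of at least 1 either way. Of the 6 genes, 5 passed the filter on low counts and were tested between lineages. Each reached its minimum of 3.78 CPM only in the gate where it was highest, so the counts of calls describe these genes and no share is read from them. In fibroblasts over endothelium all 5 tested were called, 4 higher and 1 lower, where 30.8% of all 11663 genes tested were called, 16.3% higher and 14.5% lower. Fibroblasts over mural cells gave 3 calls, all higher, against a background of 10.8%, of which 6.7% higher and 4.13% lower. Fibroblasts over macrophages gave 5 calls, all higher, against 37.8%, of which 19.9% higher and 17.9% lower. Endothelium over macrophages gave 1, Wnt2, which was higher, against 33.5%, of which 16.9% higher and 16.6% lower. With no filter the counts were also 5, 3, 5 and 1. Endothelium over mural cells and mural cells over macrophages gave 0 by edgeR, 0 by DESeq2 and 0 at an unadjusted p below 0.05, where edgeR called 11.4% of all genes (6.78% higher, 4.63% lower) and 22.1% (9.32% higher, 12.7% lower).

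Within the fibroblasts, none of the antagonists separated the gates by the test. Sfrp1 had 305.8 and 258.8 CPM in the Pi16 gate, against 321.3 and 258.5 CPM in the Tcf21 gate (log2 -0.03 ± 0.18, edgeR adjusted p = 1). In the matrix gate it had 235.9 and 144.7 CPM, on 30 and 8 UMIs, below both Tcf21 values (log2 -0.80 ± 0.28, edgeR adjusted p = 0.144) and below both Pi16 values (log2 -0.78 ± 0.28, edgeR adjusted p = 0.248). Ordered by mean, other, Tcf21 and Pi16 fibroblasts overlapped as neighbours, and the matrix gate lay below them without overlap.

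Sfrp2 had 57.5 and 80.9 CPM in the Pi16 gate, against 104.0 and 99.0 CPM in the Tcf21 gate. The mice did not overlap between these gates, but the difference did not pass (log2 -0.57 ± 0.21, edgeR adjusted p = 0.237). The matrix gate reached 117.9 and 54.2 CPM on 18 UMIs and overlapped with both. Ordered by mean, Tcf21, matrix, other and Pi16 fibroblasts each overlapped with the next.

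Frzb had 43.5 and 49.5 CPM in the Pi16 gate, against 56.7 and 74.0 CPM in the Tcf21 gate, again without overlap and without a call (log2 -0.48 ± 0.23, edgeR adjusted p = 0.563). The matrix gate had the highest mean, 121.9 CPM, but its mice gave 62.9 and 180.8 CPM on 8 and 10 UMIs, so it overlapped with the Tcf21 gate. Over the Pi16 gate the matrix gate was not called (log2 0.84 ± 0.42, edgeR adjusted p = 0.495). Wnt5b had 25 UMIs in the Pi16 gate, 13 in the Tcf21 gate, 12 in other fibroblasts and 0 in the matrix gate. It was not tested between these gates, because it reached the filter's minimum of 10.1 CPM in 1 sum of a gate and mouse, where 2 are needed. Over all genes, edgeR called 1.13% of 10995 genes for Pi16 over Tcf21 (0.628% higher, 0.5% lower), 2.2% for matrix over Tcf21 (0.673% higher, 1.53% lower) and 0.882% for matrix over Pi16 (0.227% higher, 0.655% lower). It called 0 of the 6 genes in each. DESeq2 also called 0 of them. At an unadjusted p below 0.05 in edgeR's test, 2 of the 4 tested (Sfrp2 and Frzb) differed for Pi16 over Tcf21, and 1 (Sfrp1) in each comparison of the matrix gate. The median matrix cell was deeper, at 3520 and 4122 UMIs.

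On a finer scale of Pi16, Frzb was lowest in the fibroblasts richest in it. Pi16 encodes a secreted peptidase inhibitor that marks a fibroblast state found in many tissues. Fibroblasts were binned by Pi16 UMIs per 10000 UMIs of the cell, a division chosen with the values in view and given as a description with no test. Frzb had 60.9 and 65.9 CPM in cells with no Pi16 UMI, 58.6 and 80.6 CPM above 0 to 10, 50.2 and 51.0 CPM above 10 to 50, and 11.5 and 12.1 CPM above 50. The top bin, 277 cells with 10 Frzb UMIs, lay below every other bin in both mice, at a pooled 5.42-fold below the cells with no Pi16 (exact interval 2.87 to 11.5, counting error only). Cells of the top bin were deeper, with medians of 3106 and 2874 UMIs, against 2351 and 2229.5 UMIs at no Pi16.

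Sfrp1 kept a level course over the same bins, with means of 274.6, 276.2, 284.4 and 299.3 CPM from no Pi16 to the top bin. Sfrp2 averaged 100.8 ± 15.9, 76.8 ± 8.7, 66.3 ± 0.6 and 57.7 ± 44.4 CPM (SD, n = 2), and its mice parted in the top bin at 26.3 and 89.0 CPM. Cd248, the gene of the stromal surface protein endosialin, lay the other way from Frzb, with 212 and 490 CPM in the top bin, against 8.28 and 20.6 CPM in cells with no Pi16.

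**Figure D2:**
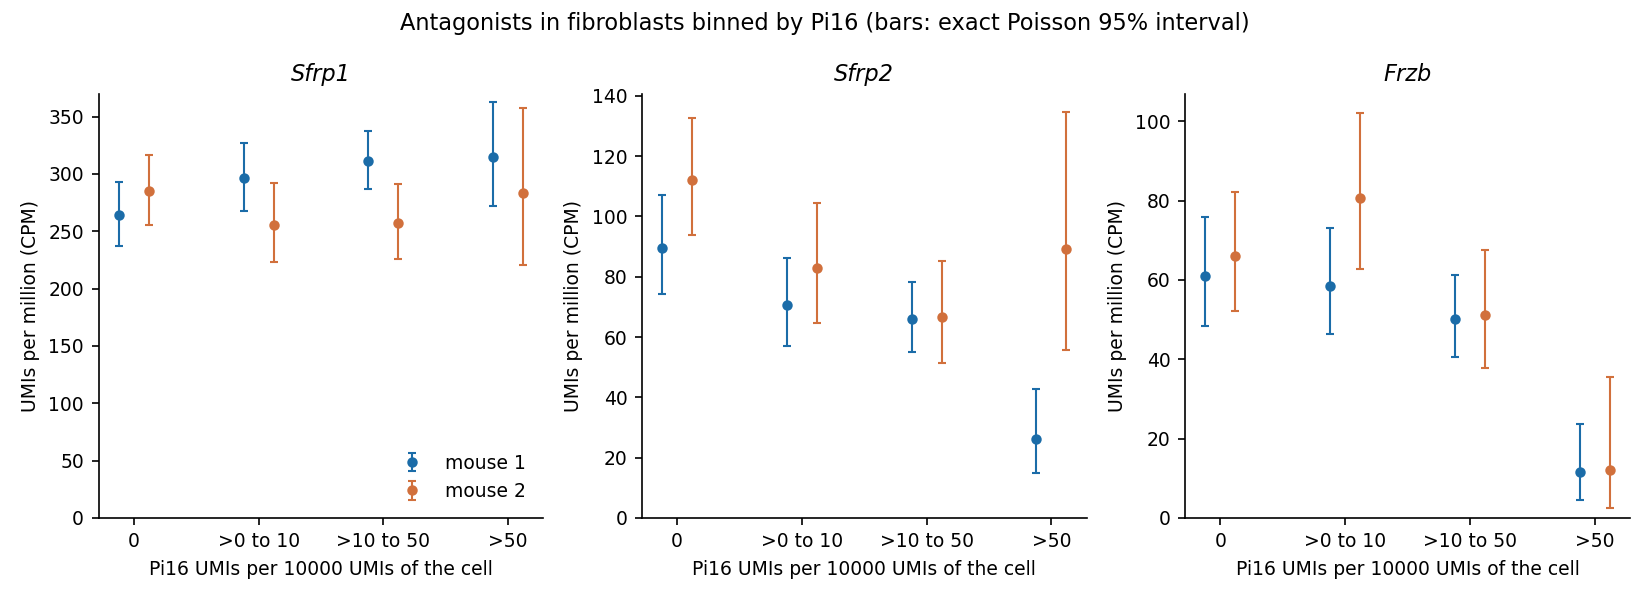
Level in CPM of Sfrp1, Sfrp2 and Frzb in fibroblasts binned by Pi16 UMIs per 10000 UMIs of the cell, with 1 point for each mouse and bars for the exact Poisson 95% interval. Frzb is at 11.5 and 12.1 CPM in the top bin, and Sfrp1 lies between 255.8 and 315.2 CPM in all bins.

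Most fibroblasts with an antagonist UMI showed 1 of the 3 genes. Detection was sparse, so a gene with no UMI in a cell need not be absent from it. At full depth a UMI of Sfrp1 was found in 47.5% of fibroblasts of mouse 1 and 41.7% of mouse 2, of Sfrp2 in 12.2% and 12.6%, and of Frzb in 12.1% and 12.7%. With each cell thinned to 1000 UMIs, which left out 13 and 40 fibroblasts, the shares were 23.4% and 22.5% for Sfrp1, 5.93% and 7.33% for Sfrp2, and 4.99% and 5.58% for Frzb. These fibroblasts had medians of 2751.5 and 2498 UMIs before thinning, against 2844 and 2627 in macrophages, which should lack these genes and gave at most 0.165% for any of the 3. At full depth 58.2% and 55.5% of fibroblasts had a UMI of at least 1 of the antagonists. Of all fibroblasts, 46.2% and 45.0% had 1 of them, 10.6% and 9.58% had 2, and 1.47% and 0.927% had all 3.

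For Sfrp1 and Sfrp2, cells with both were at or above the number that the product of their shares gives, and the mice were not tested against each other. Thinned fibroblasts with both numbered 40 in mouse 1, where the product gives 25.3 (ratio 1.58, interval 1.13 to 2.15), and 21 in mouse 2, where it gives 20.7 (ratio 1.01, interval 0.627 to 1.55). At 2000 UMIs the ratios were 1.30 and 1.25, with intervals of 1.03 to 1.62 and 0.923 to 1.65, and at full depth they were 1.28 and 1.15. Sfrp1 and Frzb were found together in 19 and 15 thinned cells, at ratios of 0.891 and 0.95. At full depth they shared 100 and 53 cells, at ratios of 0.949 and 0.775. The full-depth intervals, 0.772 to 1.15 and 0.581 to 1.01, include 1, so this pair was not told apart from the product there. Sfrp2 and Frzb were found together in only 8 thinned cells of each mouse, at ratios of 1.48 and 1.56 with intervals that include 1. At full depth they shared 39 and 29 cells, at ratios of 1.45 and 1.40. The full-depth interval lay above 1 in mouse 1 (1.03 to 1.98) and included 1 in mouse 2 (0.941 to 2.02). Cells of a mouse are not replicates, and at full depth deeper cells show more genes of every kind.

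**Figure D3:**
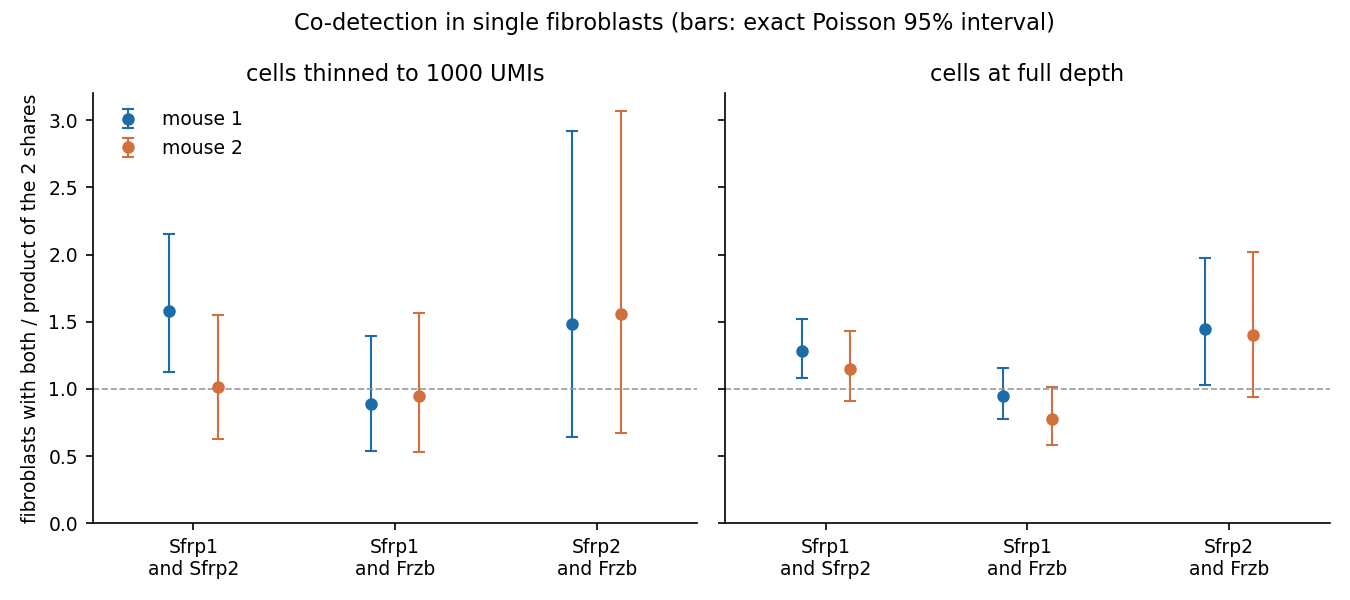
Number of fibroblasts with a UMI of both genes divided by the product of the 2 shares times the number of cells, for 3 pairs, with cells thinned to 1000 UMIs on the left and at full depth on the right. Each point is 1 mouse and the bars are exact Poisson 95% intervals; the dashed line marks a ratio of 1, and the Sfrp1 and Sfrp2 pair in mouse 1 is the only value at 1000 UMIs whose interval lies above it.

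Sfrp2 and Frzb were found in nearly equal numbers of fibroblasts, 223 and 163 for Sfrp2 and 222 and 164 for Frzb in mouse 1 and mouse 2, but with more Sfrp2 UMIs in some of them. Fibroblasts with at least 3 Sfrp2 UMIs numbered 35 in mouse 1 and 27 in mouse 2 and held 35.8% and 38.6% of its fibroblast UMIs, whereas cells with at least 3 Frzb UMIs numbered 6 and 6 and held 7.63% and 9.95%. The Sfrp2-rich cells were set beside fibroblasts with none, and genes were taken by the smaller of their log2 ratios in the 2 mice, with no test and with the rich cells deeper (medians of 3305 and 2789 UMIs, against 2725 and 2449.5). Wisp2, a secreted CCN protein known as a Wnt target, led with 438 and 657 CPM in rich cells, against 53.9 and 116 CPM in cells with none. Mfap4, a microfibril protein, had 791 and 681 CPM in rich cells, against 199.6 and 144 CPM in cells with none, and the vasoactive peptide gene Adm had 707 and 884 CPM, against 194 and 212 CPM in cells with none. On the other side Tmem100 led, with 8.42 and 0 CPM in rich cells, against 107 and 95.7 CPM in cells with none. Fst and Ccl11 were picked from the genes after it. Fst, which encodes an activin binder, was at 0 in rich cells of both mice, against 55.2 and 44.3 CPM. With so few rich cells, a gene at 0 is known only to lie under a limit of 3 UMIs, and the size of its difference is not known. The chemokine gene Ccl11 had 33.7 and 95.6 CPM in rich cells, against 300.3 and 295 CPM in cells with none.

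Sfrp1-rich fibroblasts (at least 3 UMIs; 150 and 72 cells) had 162 and 163 CPM of Sfrp2, against 51.4 and 73.4 CPM in fibroblasts with no Sfrp1. They also had more Figf, the gene of the lymphatic growth factor VEGF-D (93.9 and 154 CPM, against 21.7 and 27.6 CPM). Wisp2 was higher in Sfrp1-rich cells too (203 and 357 CPM, against 67.2 and 143 CPM), so it was not particular to the Sfrp2-rich cells. Igfbp5 led on the lower side, at 0 in rich cells of both mice, against 43.5 and 70.0 CPM. The chemokine gene Ccl2 came next, with 481 and 117 CPM, against 1421 and 307 CPM. Frzb-rich fibroblasts (at least 2 UMIs; 32 and 29 cells) had no UMI of Cd248, against 54.2 and 94.7 CPM in fibroblasts with no Frzb, and had more Fibin (352 and 469 CPM, against 129 and 176 CPM). Tmem100 was lower in Frzb-rich cells as well (29.4 and 0 CPM, against 103 and 94.4 CPM). Igfbp5 and Cd248 at 0 in rich cells are known only to lie under a limit of 3 UMIs.

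Across all 8 gates in 2 mice (16 values, log2 of CPM + 5), the genes most like Sfrp1 were Gsta3, Podn, Htra3, Loxl1 and Svep1, with Pearson correlations of 0.993 to 0.990 among 9066 genes. For Sfrp2 they were Sfrp1 itself (0.990), Dclk1, Gsn, Svep1 and Htra3, and for Frzb they were Phgdh (0.990), Cercam, Fkbp11, Twist2 and Larp6. The 16 values come from 2 libraries and mostly contrast fibroblasts with the rest, so these are descriptions of a shared lineage pattern. Over the 4 fibroblast gates alone (8 values), Sfrp1 correlated with Sfrp2 at 0.452 and with Frzb at -0.895. The 13 matrix cells of mouse 2 supply the lowest Sfrp1 and the highest Frzb value, on 8 and 10 UMIs. Both extremes of Sfrp2 are matrix values, whereas the highest Sfrp1 and the lowest Frzb value lie in other gates. The nearest genes over the 4 fibroblast gates were Anapc13 for Sfrp1 (0.983), Lmf2 for Sfrp2 (0.977) and Gart for Frzb (0.976).

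Wnt2 was concentrated in the endocardium, the inner lining of the heart chambers. Endocardial cells had 3 and 6 UMIs of it (43.5 and 78.7 CPM), against 7 and 10 UMIs (4.65 and 5.16 CPM) in other endothelium. The groups did not overlap, and the difference was called (log2 3.35 ± 0.84, edgeR adjusted p = 0.00508), where 5.78% of all 10995 genes were called, 2.63% higher and 3.16% lower. Wnt2 passed the filter on low counts only through the endocardial gate, so its being tested depended on the level there. With no filter edgeR gave log2 3.22 and adjusted p = 0.0286. Sfrp1, Sfrp2, Frzb and Wnt5b had 0 UMIs among the 145116 of the endocardial gate, against 11, 1, 2 and 0 UMIs in other endothelium. The endocardial gate had 178 and 176 UMIs of Vwf, a blood-clotting factor abundant in endocardium, against 164 and 150 in the far larger other endothelium.

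The gate held 827 and 591 CPM of the fibroblast markers, with Pdgfra and Col1a1 at 0 in both mice. The endothelial marker Cldn5 was also at 0 in both. Their part in the Wnt2 value was not tested.

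Some endocardial cells also pass the Dcn threshold and so were in neither lineage; they were set apart with the values in view and have no test. These 57 cells, 23 from mouse 1 and 34 from mouse 2, had 6 and 10 UMIs of Wnt2 (94.4 and 102.6 CPM), against 0.96 and 0.92 CPM in fibroblasts. Their pooled level was 105-fold above fibroblasts (exact interval 42.4 to 284) and was not told apart from the endocardial gate at this depth (1.60-fold, interval 0.67 to 4.11). They had 0 UMIs of Sfrp1, Sfrp2, Frzb, Wnt5b and of the fibroblast receptor gene Pdgfra, against 1208 and 748 Pdgfra UMIs in fibroblasts. Sfrp1 was thus at least 15.3-fold lower in them than in fibroblasts. Pdgfra is among the 7 fibroblast markers, and the endocardial gate had it at 0 while holding 827 and 591 CPM of them. All 57 cells carry Dcn by their cut, so Pdgfra at 0 does not show these cells to be free of fibroblast RNA. They had 128 and 138 UMIs of Vwf and 7 and 18 of Nrg1, an endocardial growth factor gene. Of the 48 kept cells with a Wnt2 UMI, 22 had the endocardial cut, 15 were other endothelium and 8 were fibroblasts. By mean level the gates ran from endocardial through other endothelial, matrix, other, Tcf21 and Pi16 fibroblasts, and only the step below the endocardial gate and the step from other to Tcf21 fibroblasts were free of overlap, the second on 4 UMIs and 1.

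**Figure D4:**
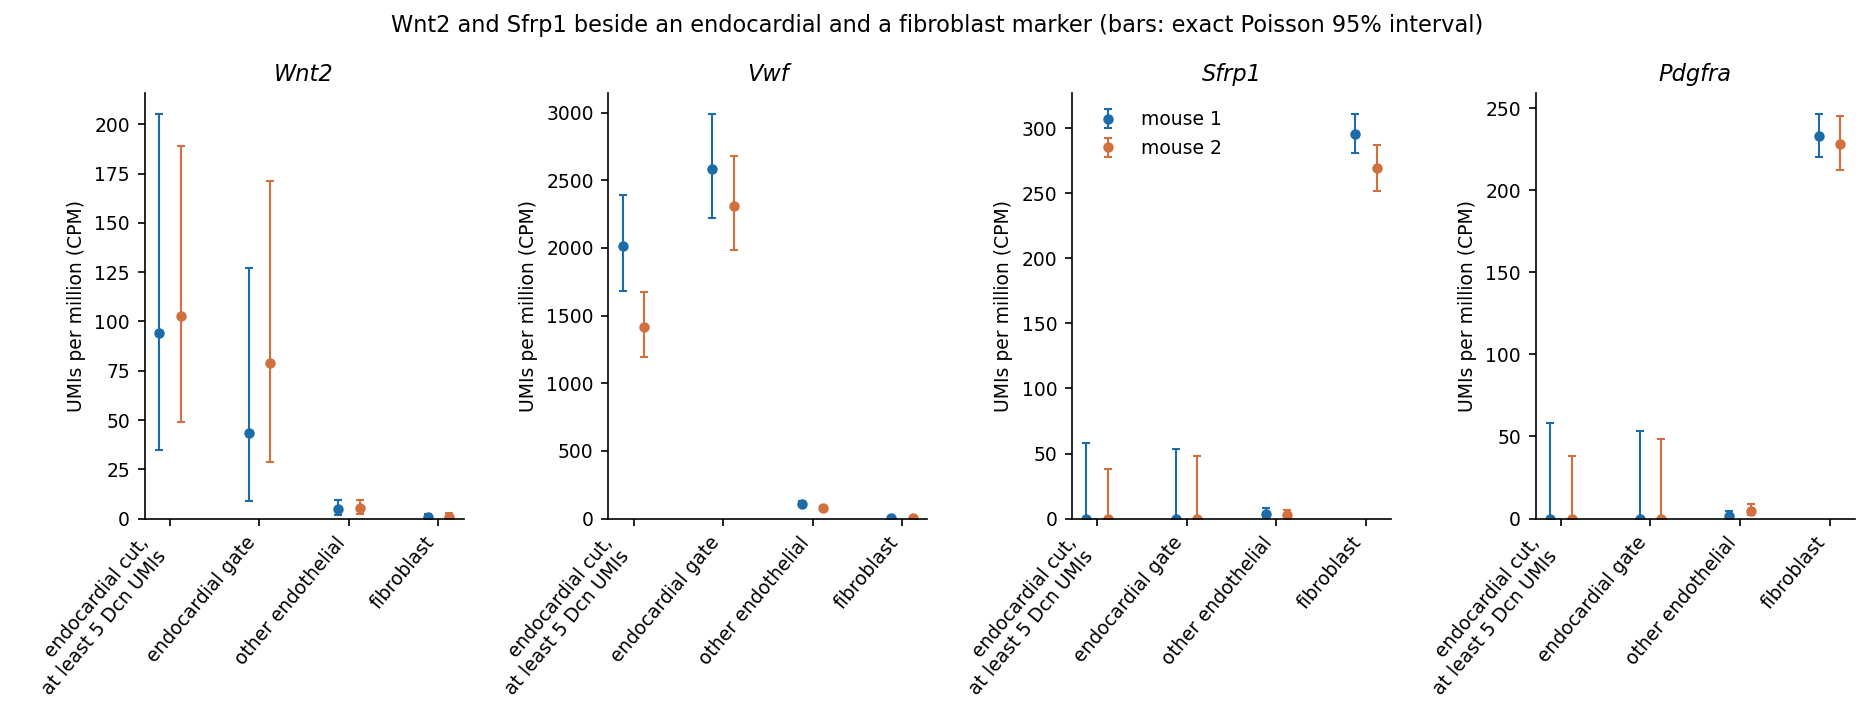
Level in CPM of Wnt2, the endocardial marker Vwf, Sfrp1 and the fibroblast marker Pdgfra in cells with the endocardial cut and at least 5 Dcn UMIs, the endocardial gate, other endothelium and fibroblasts, with 1 point for each mouse and bars for the exact Poisson 95% interval. The first and second groups share Wnt2 and Vwf and have no UMI of Sfrp1 or Pdgfra.

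The rest of the Wnt pathway was read from a list of 84 other genes, of which 45 were tested between lineages. Genes of it below 20 CPM, and single genes given to complete a count, were named with their values in view. In fibroblasts over endothelium 20 were higher and 8 lower, or 62.2% called, where 30.8% of all genes were. The median log2 fold change was 0.63, against 0.03 over all genes. A sparse list gene can pass the filter on low counts only through the gate where it is highest. The counts of calls, here and by class or in other comparisons, therefore describe these genes, and no share is read from them. Secreted antagonists other than the 6 numbered 2 tested and both were higher. Igfbp4, a secreted protein known to block Wnt at its receptors, had 1006 and 916 CPM in fibroblasts, against 38.1 and 49.7 CPM in endothelium (log2 4.50 ± 0.18, edgeR adjusted p = 2.48e-18). The other was Dkk3, with 55 UMIs in fibroblasts, against 0 in endothelium. In the matrix gate Dkk3 had 55.0 and 36.2 CPM, against 5.52 and 4.50 CPM in the Pi16 gate. It was the only list gene called between these gates (log2 2.94 ± 0.79, edgeR adjusted p = 0.0402). The matrix values come from 33 and 13 cells with 127181 and 55304 UMIs of all genes, so they rest on few Dkk3 UMIs. Both Pi16 values lie under the filter's minimum of 10.1 CPM, and Dkk3 may have been tested only through the matrix gate.

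Of 5 other ligands tested, 4 were higher in fibroblasts than in endothelium, all under 20 CPM: Wnt5a with 85 UMIs against 0, Wnt6 with 82 against 2, Wnt9a with 95 against 5 and Wnt11 with 104 against 1. Wls, which carries Wnt proteins to the cell surface, had 78.3 and 110.5 CPM in fibroblasts, against 26.7 and 34.8 CPM in endothelium (log2 1.66 ± 0.18, edgeR adjusted p = 6.48e-09). All 3 tested genes of the R-spondin axis were higher in fibroblasts: the Wnt-enhancing ligand gene Rspo1 (104 UMIs against 7), its receptor gene Lgr4 and the receptor-degrading ligase gene Znrf3.

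Receptors divided between the lineages, with 8 of 17 tested higher in fibroblasts and 4 lower. Fzd1 had 27.8 and 31.7 CPM in fibroblasts, against 2.54 and 0.99 CPM in endothelium (log2 4.17 ± 0.47, edgeR adjusted p = 1.33e-08). Fzd6 lay the other way, with 0.386 and 0.915 CPM in fibroblasts, against 25.4 and 29.8 CPM in endothelium (log2 -5.34 ± 0.56, edgeR adjusted p = 3.67e-09). Tspan12, which assists Frizzled signalling in vessels, had 15.0 and 21.7 CPM, against 124 and 171 CPM (log2 -2.96 ± 0.18, edgeR adjusted p = 2.07e-14). Fzd4 and Kremen2 were the other receptors lower in fibroblasts.

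Of 16 intracellular and target genes tested, 2 were higher in fibroblasts and 4 lower, or 37.5% called, near the 30.8% over all genes. Ctnnb1, which encodes beta-catenin, had 97.2 and 81.5 CPM in fibroblasts, against 256 and 309 CPM in endothelium (log2 -1.61 ± 0.15, edgeR adjusted p = 4.99e-10). Ccnd1, a cell cycle gene and textbook Wnt target, had 72.9 and 79.0 CPM, against 260.0 and 254 CPM (log2 -1.71 ± 0.16, edgeR adjusted p = 3.14e-10). Prickle1, of the planar polarity branch, had 4.82 and 7.32 CPM, against 35.0 and 33.3 CPM (log2 -2.47 ± 0.31, edgeR adjusted p = 1.47e-07).

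**Figure D5:**
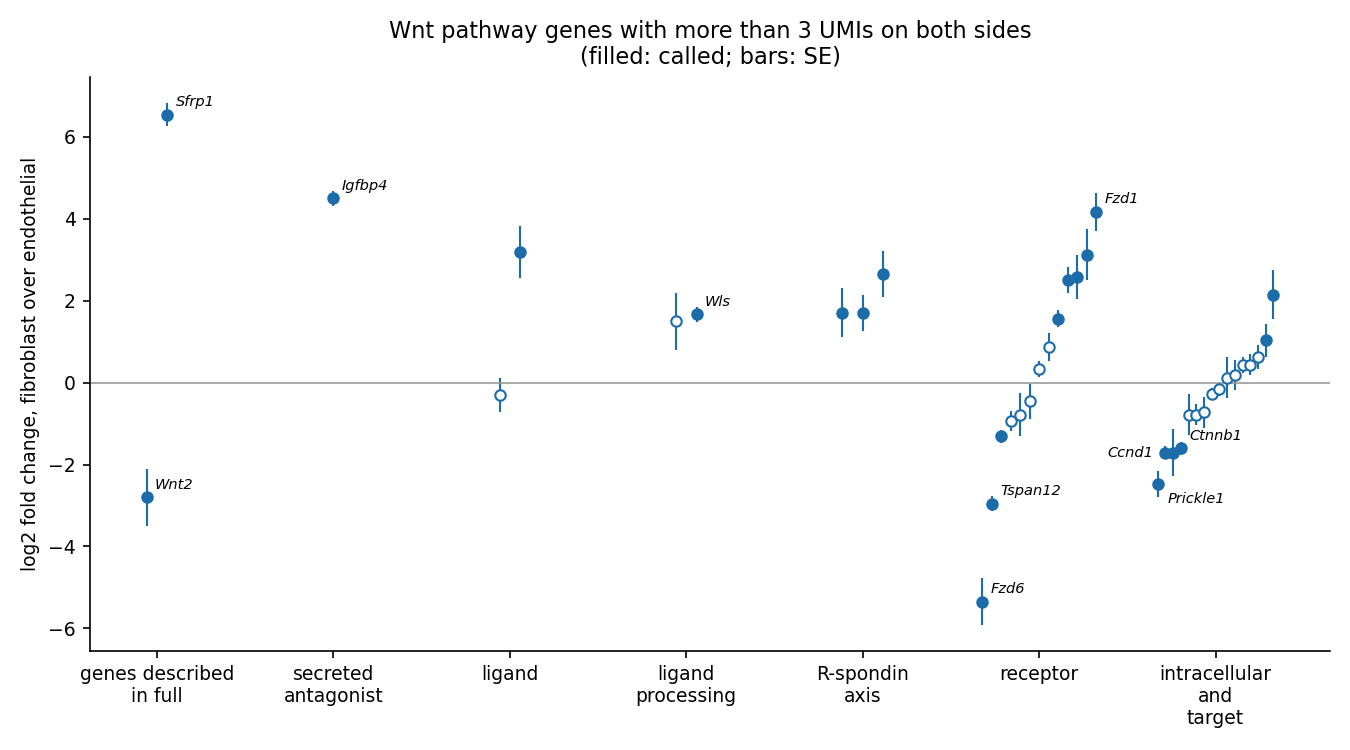
Log2 fold change of fibroblast over endothelial cells for the 39 tested genes with more than 3 UMIs on both sides: Sfrp1 and Wnt2 first, then the genes of the list by class, with bars for the SE and filled points for called genes. Sfrp1 is the highest and Fzd6 the lowest of the genes shown; receptors lie on both sides of 0.

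The endocardial gate differed from other endothelium in 6 of the 45 list genes, all higher, or 13.3% called, where 5.78% of all genes were. Reck, a membrane protein of a Wnt receptor complex, had 116 and 52.5 CPM in endocardial cells, against 3.32 and 3.10 CPM in other endothelium (log2 4.37 ± 0.71, edgeR adjusted p = 4.6e-06). Its partner Adgra2 had 102 and 78.7 CPM, against 6.65 and 4.65 CPM (log2 3.71 ± 0.68, edgeR adjusted p = 5.27e-05). Wls had 116 and 131 CPM, against 22.6 and 31.0 CPM (log2 1.92 ± 0.42, edgeR adjusted p = 0.000987). Igfbp4, the signal inhibitor Nkd1 and the receptor-like gene Bambi were the other 3. The endocardial gate held 68924 and 76192 UMIs of all genes in mouse 1 and mouse 2. Its values of Reck, Adgra2 and Wls therefore rest on few UMIs.

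Against macrophages, 30 of the 45 list genes were higher in fibroblasts and 1, Wnt4, was lower, or 68.9% called, where 37.8% of all genes were. Against mural cells 2 were higher, Igfbp4 and Bambi, and 2 lower, Tspan12 and Vangl1, or 8.89% called, where 10.8% of all genes were. Fibroblasts had 15.0 and 21.7 CPM of Tspan12, against 88.7 and 161 CPM in mural cells, and 13.5 and 21.7 CPM of the planar polarity gene Vangl1, against 99.8 and 125 CPM in mural cells. In the matrix gate Ccnd1 was higher than in the Tcf21 gate, with 165 and 199 CPM, against 53.6 and 60.6 CPM (log2 1.33 ± 0.35, edgeR adjusted p = 0.0168). No list gene was called for the Pi16 gate over the Tcf21 gate by edgeR.

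The mice differed by less than 1.5-fold in fibroblasts for each antagonist. Sfrp1 was 1.10-fold higher in mouse 1 than in mouse 2 (exact interval 1.01 to 1.20), Sfrp2 1.31-fold lower (1.11 to 1.53) and Frzb 1.21-fold lower (1.00 to 1.46). These intervals cover counting error of 1 library on each side and are no test of the mice.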

How the data were processed

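Single-cell RNA was measured in ventricular non-myocytes of 2 mice. The authors made the libraries with a droplet 3′ method and deposited UMI counts per gene and cell. Cell Ranger 2.2.0, FastQC and the mm10 build are named per the submitters' processing notes. No column of other samples was present (0 unused).

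Barcodes under 500 UMIs or 300 genes, or over 10% mitochondrial, were dropped. Scrublet (scanpy 1.11.5, Python 3.11.15, numpy 2.4.6, scipy 1.17.1) then removed 405 and 248 cells as doublets, and 6608 and 5687 cells remained. Cells passing 2 or more lineage gates (361) or none (1017) entered no comparison. The matrix gate was taken before the Pi16 gate, since the other order leaves it 4 cells in mouse 1 and 1 in mouse 2, and Tcf21 after both. This order, the Pi16 bins, the groups of antagonist-rich cells and the motifs were chosen after values were seen. The members and gene lists were chosen with earlier results of these data known.

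Counts were summed per gate and mouse and tested with edgeR 4.0.16 (R 4.3.3; quasi-likelihood, TMM, filterByExpr) with Benjamini-Hochberg adjustment over all genes. Mouse was a block, because every gate holds cells of the same 2 animals. Each mouse is 1 library, so n is 2, and cells are not replicates. The script was tested on simulated data. Named from the Wnt list were up to 3 called genes per class in fibroblasts over endothelium and up to 2 in other comparisons, by size of change, at 20 CPM or more on the higher side in both mice. Intervals are 95% and exact, and they and the limit of 3 UMIs cover counting error only. Alternatives were DESeq2 1.42.0, other size factors, no filter, no block, no fold threshold, stricter gates, other cell filters and each mouse alone.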

Additional observations from a re-analysis of the deposited data

Results flagged for a closer look

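Signal of the 6 genes outside the compared gates was found in cells that no comparison used, on more than 3 UMIs, and is given as values. Wnt2 averaged 98.5 CPM over the 2 mice in the 57 endocardial cells with at least 5 Dcn UMIs. Sfrp1 averaged 110.9 CPM in 38 other endothelial cells with at least 5 Dcn UMIs, at 145.1 CPM in mouse 1 and 76.7 CPM in mouse 2, on 9 and 6 UMIs. In the remaining 266 cells that pass 2 or more lineage gates, Sfrp1 averaged 47.8 CPM, Sfrp2 50.6 CPM and Frzb 15.5 CPM. Each was higher in mouse 1 there, with 57 and 5 UMIs of Sfrp1. Sfrp2 had 75.5 CPM on 58 UMIs in mouse 1, above the 68.5 CPM of that mouse's fibroblasts. In mouse 2 it had 25.6 CPM on 6 UMIs. In the 1017 cells of no lineage gate, Sfrp1 averaged 8.36 CPM and Frzb 2.12 CPM, the second on 4 UMIs of mouse 1 and 0 of mouse 2.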

How the results depend on the processing

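Of 581 alternative values for 57 results, 8 turned direction, none of them a called difference. For Pi16 over Tcf21, Sfrp1 became 0.0071 with no filter, 0.0091 with stricter gates and 0.0017 without replicate 1 (-0.072 without replicate 2). With stricter gates matrix over Tcf21 gave 0.21 for Sfrp2 and -0.78 for Frzb, and matrix over Pi16 gave -0.21 for Frzb. Leaving out a mouse, Sfrp2 ranged from -0.87 to 0.18 in matrix over Tcf21 and from -0.58 to 1.04 in matrix over Pi16. Genes called for fibroblasts over macrophages numbered 6793 with no fold threshold (4406 with it), and for endothelium over mural cells 341 with cells of several gates kept (1331 without). Pi16 over Tcf21 (124) gave 55 under DESeq2, 21 with no replicate block and 75 if cells of several gates stayed. Matrix over Tcf21 (242) gave 161 with DESeq2 and 77 with no replicate block. Matrix over Pi16 (97) gave 54, 16 and 43 under those settings, and 243 with the Pi16 gate taken first, which left 4 and 1 matrix cells. Endocardial over other endothelium (636) gave 413 with no replicate block, and the block changed no call of the 6 genes. Shares of fibroblasts at 2000 UMIs and unthinned were 38.6% and 44.6% for Sfrp1, 10.8% and 12.4% for Sfrp2, and 9.75% and 12.4% for Frzb. Ratios of shared cells at 2000 UMIs, unthinned and within the Tcf21 gate were 0.847, 0.862 and 0.722 for Sfrp1 with Frzb, and 1.40, 1.43 and 1.27 for Sfrp2 with Frzb. With 1 mouse left out no test remains, and the Frzb log2 ratio over the Pi16 range was -2.44 to -2.41. The causes were not tested. Depth limits Wnt5b, Wnt2 and every mural value.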
